A study of Mus musculus with 8 samples.

Results

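Blocking miR-203 in differentiating mouse adipocyte cultures was compared with a control transfection across all genes of the deposited expression table. A gene was kept when its level was at least 1 FPKM (fragments per kilobase of transcript, scaled to the mapped fragments of the library) in either group, which left 12828 of the 18933 genes. For each gene the measure was log2((FPKM with the miR-203 inhibitor + 1) / (FPKM in the control + 1)), here called the log2 ratio, so a positive value means a higher level with the inhibitor. The group inhibitor_203 held 2 samples of primary preadipocytes transfected with a locked nucleic acid inhibitor, a short modified oligonucleotide that binds one microRNA, at 100 nM. The group NC held 2 samples of the same kind of culture transfected with a control that the labels do not describe further. In both groups the cells came from the stromal vascular fraction of a collagenase-digested fat depot that is not named, were moved to full medium after 8 h, were induced with an adipogenic mix of rosiglitazone, dexamethasone, IBMX and insulin, and were harvested 4 days into differentiation. Mouse strain, genotype, sex and age are not stated, and neither is whether replicates stem from different mice. The series holds 8 samples in all, with inhibitors of miR-182 and miR-708 as the other groups.

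The table gives 1 pooled FPKM per group and no value per sample, so no spread between replicates could be computed and read depth is unknown. A gene is described as called, and as having risen or fallen, where the q-value in the authors' deposited table was below 0.05. Those q-values come from the authors' own comparison of the 2 samples with the 2 samples. The control values were identical, gene by gene, in the tables of the other inhibitors, so all 3 comparisons rest on the same control samples.

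MicroRNAs are short RNAs that guide Argonaute proteins to messenger RNAs, mostly through pairing of their seed with a complementary site in the 3′ untranslated region (UTR), and so lower the stability and translation of those messengers. A blocked microRNA is therefore classically looked for in higher levels of messengers that carry its seed site. miR-203 is best known from skin, where it restrains the proliferation of epidermal progenitors. Brown adipocytes burn fat to make heat through the uncoupling protein of the inner mitochondrial membrane, and differentiate from fibroblast-like precursors that secrete extracellular matrix. The series title concerns what microRNAs do in keeping and forming brown adipocytes.

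The mature strand of miR-203 is shown because its seed defines the sites counted further on. It lies at chr12:112130927-112130948 on the plus strand of GRCm38.p6 (RefSeq), and the capitals mark the seed, bases 2 to 8.
miR-203-3p: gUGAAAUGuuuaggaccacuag
The strongest class of site, the 8mer, is CATTTCAA in the messenger, and the classes of 7 bases are CATTTCA (7mer-m8) and ATTTCAA (7mer-A1). The level of miR-203 itself was not analysed here.

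Of 12764 genes that were measured and tested, 612 (4.79%) were called higher and 333 (2.61%) were called lower with the inhibitor. The median fold of the genes called higher was 1.61, with quartiles of 1.43 and 1.86, and that of the genes called lower was 1.51, with quartiles of 1.39 and 1.81. A change of at least 2-fold was reached by 112 of the genes called higher and by 53 of those called lower. The median log2 ratio of all measured genes was -0.01, with quartiles of -0.16 and 0.16. Of the called genes, 413 shared the smallest p-value of the authors' deposited table, 5e-05, which gives q = 0.00176. Their order is thus not resolved by the p-values, and beside printed values of called genes q is given only where it differs from 0.00176. At the edge of the threshold, Ostn, listed at 0.499 FPKM with the inhibitor and 1.05 FPKM in the control, was the last gene inside, and Gnpnat1, listed at 12.99 and 16.8 FPKM, the first outside. The authors' deposited table gives them q-values of 0.04996 and 0.0506.

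**Figure D1:**
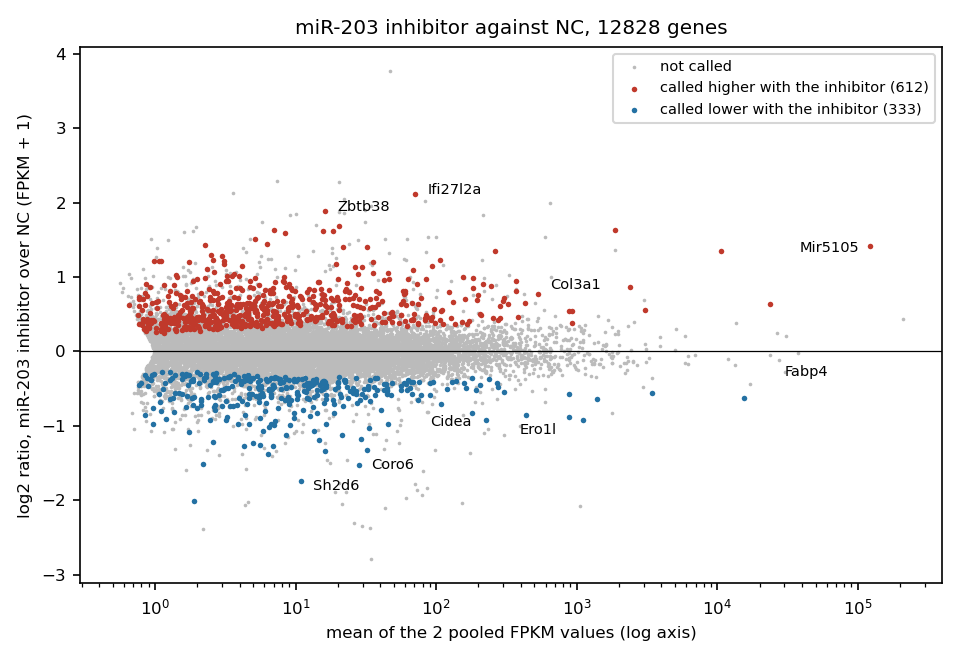
Each point is 1 of the 12828 measured genes, with the mean of the 2 pooled FPKM values on a log axis and the log2 ratio of the miR-203 inhibitor over NC on the other axis. The 612 genes called higher and the 333 called lower spread over all levels, and the labelled genes include Ifi27l2a, at 2.11, and Sh2d6, at -1.75.

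Adipocyte markers were high in both groups, and most markers of other cell types were low. Fabp4, the fatty acid binding protein of adipocytes, was at 37047 FPKM with the inhibitor and 37475 FPKM in the control. Pparg, the master transcription factor of adipogenesis, was at 130.1 and 135.7 FPKM in the same order. The summed FPKM over 9 macrophage markers was 7.19 with the inhibitor and 7.89 in the control, and the defining markers Emr1, Csf1r and Cd163 stayed below 0.3 FPKM in both groups. The sum over 10 endothelial markers was 23.8 with the inhibitor and 24.9 in the control, nearly all of it Egfl7 (21.3 and 22.6 FPKM), while Pecam1, Cdh5 and Tek stayed below 1 FPKM. The sums over 10 pericyte and smooth muscle markers were 37.1 in both groups, with Mylk called higher and Des and Cspg4 called lower. Of 7 nervous tissue markers, 7 skeletal muscle markers, 3 mesothelial markers and 1 red blood cell marker, those with a row in the table, 7 reached 1 FPKM, and the called ones were Ngfr and Myl1 (higher) and Des (lower). The part of these cell types in the results was not tested.

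Many interferon-stimulated genes rose. Of 80 listed antiviral genes and GTPases with a row in the table, 43 were measured, and 27 of these rose and 0 fell, against 4.79% and 2.61% of all genes tested. The median log2 ratio of the 43 was 0.56, against -0.01 for all measured genes, and 0.32 with no minimum on FPKM. Of the 43, 15 reached 1 FPKM in the inhibitor group alone, so the measured ones are in part selected for being higher there. Ifi27l2a, an interferon-induced mitochondrial protein (chr12:103442167-103443680), was at 114.9 FPKM with the inhibitor and 25.9 FPKM in the control, a 4.44-fold rise and the largest ratio among called genes of at least 5 FPKM. Bst2, the tetherin that holds budding virus at the cell surface, was at 28.1 FPKM with the inhibitor and 8.53 FPKM in the control. Most of the others were low: the antiviral chaperone Rtp4 was at 1.93 FPKM with the inhibitor and 0.261 FPKM in the control, and Ifi205, a nucleic acid-binding protein, was at 4.73 and 1.47 FPKM. Isg15, the ubiquitin-like interferon product, was at 3.58 FPKM with the inhibitor and 1.13 FPKM in the control, and Usp18, which removes it from proteins, was at 1.34 and 0.350 FPKM.

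The factors that drive these genes were called about as often as all genes. Of 38 measured nucleic acid sensors and interferon pathway factors 2 rose (5.26%, against 4.79% of all genes tested) and 0 fell, with a median log2 ratio of 0.06, or -0.02 over those of at least 5 FPKM. Ddx58, the RNA sensor RIG-I, was at 6.32 FPKM with the inhibitor and 3.77 FPKM in the control (q = 0.0181 in the authors' deposited table). Irf7, the regulatory factor that amplifies interferon production, was at 6.23 FPKM with the inhibitor and 2.70 FPKM in the control, a ratio of 2.31, and was not called (q = 0.521 in the authors' deposited table); its locus in the table is shared with another gene, and it is named here after its values were seen.

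Antigen presentation, complement and chemokine genes also held calls upward, read against 4.79% called higher and 2.61% called lower of all genes tested. Among the measured members, 2 histocompatibility, 1 complement and 4 chemokine and cytokine genes reached 1 FPKM in the inhibitor group alone, and 0 in the control alone. Of 31 measured histocompatibility and antigen presentation genes 12 rose and 0 fell, with a median log2 ratio of 0.40, or 0.15 with no minimum on FPKM. H2-Q7, a non-classical class I chain, was at 11.1 FPKM with the inhibitor and 2.94 FPKM in the control, H2-Q4 was at 8.13 and 2.21 FPKM, and H2-Q6 was at 3.79 and 0.777 FPKM. These H2-Q genes are near-identical copies, so how reads were divided among them is uncertain. The immunoproteasome subunit Psmb9 was at 5.04 FPKM with the inhibitor and 1.99 FPKM in the control (q = 0.0240 from the authors' deposited table), and Psme2, an activator of the proteasome, was at 472 and 269 FPKM. Of 16 measured complement genes 7 rose and 0 fell, led by Cfb, the factor B of the alternative pathway, at 13.2 FPKM with the inhibitor and 3.73 FPKM in the control, and C4b at 19.1 and 9.56 FPKM. Of 45 chemokines and cytokines 15 were measured, and 8 of these rose and 0 fell. Their median log2 ratio was 0.48, or 0.11 with no minimum on FPKM. Ccl8 was at 4.66 FPKM with the inhibitor and 1.32 FPKM in the control (q = 0.00706 in the authors' deposited table), the eotaxin Ccl11 at 2.26 and 0.633 FPKM, Cxcl12 at 19.4 and 9.73 FPKM, and Tnfsf12 at 4.68 and 1.52 FPKM. Of 25 acute phase and NF-kappa-B genes 8 rose, among them the serum amyloid Saa3 (40.8 FPKM with the inhibitor, 18.1 FPKM in the control) and haptoglobin, Hp (244 and 123 FPKM), while Lcn2, the iron-carrier scavenger lipocalin 2, fell to 17.4 FPKM with the inhibitor, against 40.6 FPKM in the control.

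Promoters of interferon-responsive genes often carry the interferon-stimulated response element, and 4 stretches from called genes, picked after their values were seen, are shown with its core in capitals. The core was searched as 2 copies of GAAA with any 2 bases between them, on either strand, and overlapping matches are joined. They are read from RefSeq on GRCm38.p6 in the direction of the gene, and the matches lie before its annotated start: Bst2 at chr8:71537562-71537627, Isg15 at chr4:156200850-156200921 and Irgm1 at chr11:48871410-48871475 on the minus strand, and Gbp2 at chr3:142620579-142620638 on the plus strand.
Bst2: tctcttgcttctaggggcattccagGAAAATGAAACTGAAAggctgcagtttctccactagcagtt
Isg15: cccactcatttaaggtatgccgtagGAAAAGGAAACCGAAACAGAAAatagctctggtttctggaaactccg
Irgm1: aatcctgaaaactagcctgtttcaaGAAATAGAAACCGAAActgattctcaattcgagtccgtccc
Gbp2: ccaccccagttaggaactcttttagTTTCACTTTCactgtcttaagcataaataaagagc
Promoter windows, 250 bases before to 50 bases after the start, were matched by symbol for 9274 of the 12828 measured genes. The core was present in 12 of 21 windows of listed interferon genes that rose (57.1%) and in 5 of 12 of those that were not called (41.7%). It was present in 39 of 439 windows of all genes called higher (8.88%), in 11 of 247 of those called lower (4.45%) and in 3.49% of windows of measured genes. Over all RefSeq genes with a window the share was 3.99%. A match is a run of letters and not a measured site. Gbp2, a guanylate-binding GTPase, was at 2.44 FPKM with the inhibitor and 0.966 FPKM in the control, and Irgm1, an immunity-related GTPase, at 2.28 and 0.981 FPKM.

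Genes of the extracellular matrix held many rises, against 4.79% called higher and 2.61% called lower of all genes tested. Of 60 measured matrix glycoproteins and proteoglycans 34 rose and 0 fell, with a median log2 ratio of 0.51, and 7 of the 60 reached 1 FPKM in the inhibitor group alone. Dpt, the collagen-binding dermatopontin (chr1:164796644-164824266), was at 48.4 FPKM with the inhibitor and 22.9 FPKM in the control. The microfibril protein Mfap2 was at 11.4 and 5.22 FPKM, the thrombospondin Thbs4 at 2.97 and 1.02 FPKM, and Efemp2, a fibulin needed for elastic fibres, at 282 and 149.9 FPKM (q = 0.0190 in the authors' deposited table), in the same order. Of 21 measured collagens 5 rose and 0 fell: Col3a1 was at 668 FPKM with the inhibitor and 389 FPKM in the control, Col16a1 at 19.7 and 11.2 FPKM (q = 0.0310 from the authors' deposited table), and Col1a1, Col1a2 and Col6a2 were the others. Of 43 measured matrix proteases and inhibitors 18 rose and 0 fell, with a median log2 ratio of 0.40, or 0.24 with no minimum on FPKM. Of the 43, 4 reached 1 FPKM in the inhibitor group alone and 1 in the control alone. The gelatinase Mmp2 was at 94.0 FPKM with the inhibitor and 43.6 FPKM in the control, its inhibitor Timp2 at 37.9 and 20.5 FPKM (q = 0.00706 in the authors' deposited table), the procollagen peptidase Adamts2 at 22.2 and 12.1 FPKM, and Bmp1, which also trims procollagen, at 30.9 and 17.4 FPKM. Integrins and laminins, the receptors and the basement membrane part of this system, held 17 measured members, with 2 called higher (Itga11 and Lama2) and 1 called lower (Lamb2).

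Several surface genes of adipose progenitors rose, against 4.79% called higher and 2.61% called lower of all genes tested. Of 19 measured members 10 rose and 0 fell, and the median log2 ratio was 0.47, or 0.20 with no minimum on FPKM and 0.36 over those of at least 5 FPKM. Of the 19, 2 reached 1 FPKM in the inhibitor group alone. Ly6a, the stem cell antigen Sca-1 (chr15:74994877-74998031), was at 61.6 FPKM with the inhibitor and 29.1 FPKM in the control, and Ly6c1 was at 4.59 and 2.23 FPKM. The endoglin gene Eng was at 4.02 FPKM with the inhibitor and 1.13 FPKM in the control (q = 0.0125 from the authors' deposited table), and Wisp2, a secreted protein of preadipocytes, was at 11.0 and 5.21 FPKM. Pdgfra, the platelet-derived growth factor receptor that marks adipocyte precursors (chr5:75152292-75198215), was at 16.6 FPKM with the inhibitor and 10.9 FPKM in the control, and Pdgfrb was at 9.91 and 6.67 FPKM. Dlk1, the preadipocyte factor that restrains adipogenesis, was at 97.7 and 58.9 FPKM in the same order. It was named through a list of adipogenesis inhibitors and precursor regulators with 20 measured members. Of these 20 members 2 rose (10.0%), 1, Klf2, fell (5.0%) and 17 were not called. Their median log2 ratio was 0.04, or -0.05 over those of at least 5 FPKM. In such bulk samples more cells of a type and more RNA per cell cannot be told apart, and both groups were harvested at 1 time only.

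Genes called in signalling pathways included ligands, receptors and secreted modulators. Their counts are read against 4.79% called higher and 2.61% called lower of all genes tested. Among the measured members, 6 Wnt, 5 TGF-beta and BMP, and 2 PDGF, FGF and angiogenic genes reached 1 FPKM in the inhibitor group alone. In the control alone it was 0, 2 and 1, in the same order. Of 29 measured Wnt ligands, receptors and modulators 6 rose and 1 fell: the secreted antagonists Sfrp2 and Sfrp1 were at 27.3 and 7.44 FPKM with the inhibitor, against 11.6 and 3.55 FPKM in the control. Porcn, the acyltransferase that lipid-modifies Wnt proteins, fell to 17.99 FPKM with the inhibitor, against 46.4 FPKM in the control. Of 52 TGF-beta and BMP pathway genes 9 rose and 1 fell. Fstl1, a follistatin-like secreted protein, was at 129.6 FPKM with the inhibitor and 57.9 FPKM in the control (q = 0.00928 from the authors' deposited table), and the stress-induced hormone Gdf15 fell to 4.18 FPKM, against 8.00 FPKM in the control. Of 40 insulin and IGF genes 7 rose and 0 fell, among them the imprinted genes Cdkn1c, a cyclin-dependent kinase inhibitor (36.7 FPKM with the inhibitor, 16.2 FPKM in the control), and H19, a non-coding RNA (73.9 and 41.5 FPKM). Of 32 PDGF, FGF and angiogenic genes 9 rose and 1 fell: Angptl2 was at 33.9 FPKM with the inhibitor and 23.9 FPKM in the control (q = 0.00591 in the authors' deposited table), while Angptl6 fell to 12.9 FPKM, against 19.8 FPKM (q = 0.00327). Of 16 Notch genes 0 were called in either direction, with a median log2 ratio of 0.06. Of 22 Hox genes 0 were called, with a median log2 ratio of 0.01, but 6 of these lie in loci shared by 5 or more genes, where the table holds no call at all. Lists as small as these can hold 0 calls at the shares of all genes.

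Some cell division genes rose, and the counts are read against 4.79% called higher and 2.61% called lower of all genes tested. Of 60 measured mitosis genes 24 rose and 1 fell, while 35 were not called, with a median log2 ratio of 0.39, and 8 of the 60 reached 1 FPKM in the inhibitor group alone. Cenpf, a kinetochore protein (chr1:189640606-189688086), was at 2.85 FPKM with the inhibitor and 0.668 FPKM in the control. Cdca8 and Birc5, subunits of the chromosomal passenger complex, were at 6.36 and 13.7 FPKM with the inhibitor, against 3.05 and 7.83 FPKM in the control, and cyclin B2, Ccnb2, was at 7.66 FPKM, against 4.11 FPKM. The gene that fell was Pttg1, the securin, at 53.6 FPKM with the inhibitor and 80.3 FPKM in the control. Of 53 DNA replication genes 10 rose and 0 fell, and 6 of the 53 reached 1 FPKM in the inhibitor group alone, against 0 in the control alone. The helicase subunits Mcm5 and Mcm3 were at 3.60 and 4.33 FPKM with the inhibitor, against 1.68 and 2.64 FPKM in the control. Of 21 replication-dependent histone genes 4 rose and 0 fell, with a median log2 ratio of 0.39, or 0.19 with no minimum on FPKM. Of the 21, 3 reached 1 FPKM in the inhibitor group alone and 1 in the control alone. Among 36 cell cycle inhibitors and p53 targets 3 rose and 2 fell, and Gadd45a, a stress-induced growth arrest gene, fell to 35.9 FPKM, against 53.6 FPKM in the control (q = 0.00327 in the authors' deposited table).

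**Figure D2:**
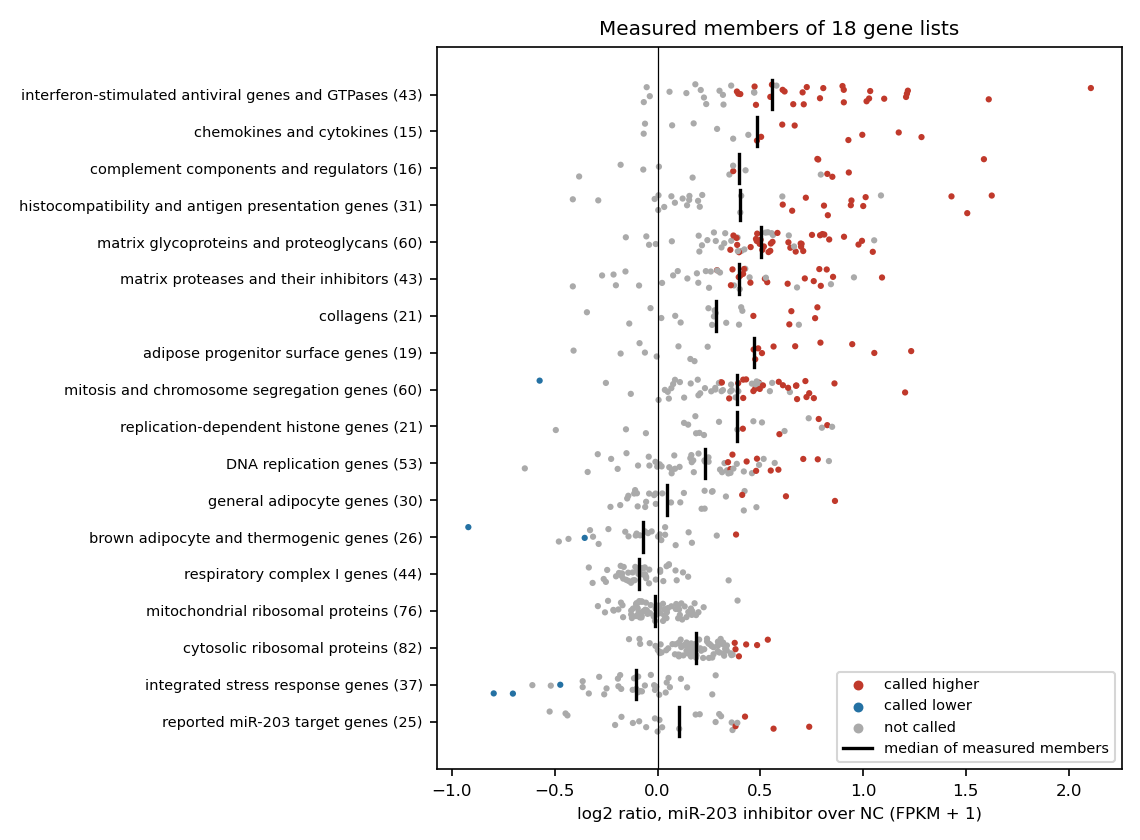
The points are the measured members of 18 gene lists, by log2 ratio of the miR-203 inhibitor over NC, coloured by call, and the black bars are list medians. The medians of the 8 lists from interferon to progenitor genes lie between 0.28 and 0.56, those of the adipocyte, brown adipocyte and respiratory lists between -0.09 and 0.04.

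General adipocyte genes with calls were higher with the inhibitor, and most called brown adipocyte genes were lower. Of 30 measured general adipocyte genes 3 rose (10.0%, against 4.79% of all genes tested) and 0 fell, with a median log2 ratio of 0.04: Car3, the carbonic anhydrase abundant in fat, was at 3072 FPKM with the inhibitor and 1688 FPKM in the control, Cfd, adipsin, at 19.8 and 12.5 FPKM, and the factor Cebpd was also called. Adipoq, adiponectin, was at 1644 FPKM with the inhibitor and 1178 FPKM in the control and was not called (q = 0.137 in the authors' deposited table), nor was the adipogenic factor Cebpa at 307 and 243 FPKM (q = 0.0811). Of 26 measured brown adipocyte and thermogenic genes 1 rose (3.85%) and 2 fell (7.69%, against 2.61% of all genes tested), with a median log2 ratio of -0.07. Cidea, a lipid droplet protein typical of brown fat, fell to 156.6 FPKM with the inhibitor, against 297 FPKM in the control. The locus of Cidea is shared with another gene, and with shared loci left out 1 brown adipocyte gene was called lower. Ucp1, the uncoupling protein (chr8:83290352-83298452), was at 158.6 FPKM, against 203.03 FPKM in the control, and passed the threshold narrowly (q = 0.0493 in the authors' deposited table); at a q below 0.01 it would not be called. The gene that rose was Otop1 (11.97 FPKM with the inhibitor, 8.95 FPKM in the control; q = 0.0256 in the authors' deposited table). Prdm16, the switch factor for brown fat, was at 6.11 and 5.40 FPKM, and Ppargc1a, the coactivator of mitochondrial biogenesis, at 23.1 and 23.9 FPKM; neither was called.

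Mitochondrial genes encoded in the nucleus showed almost no calls, against 4.79% called higher and 2.61% called lower of all genes tested. Of 44 genes of respiratory complex I 0 were called, of 59 genes of complexes II to V 1 rose (Atp5g1), of 76 mitochondrial ribosomal proteins 0 were called, and of 43 genes of the tricarboxylic acid cycle and branched-chain amino acid catabolism 0 were called. Their medians lay between -0.13 and -0.01 on the log2 scale. Of 26 fatty acid oxidation genes 1 fell (3.85%), Acot2, an acyl-CoA thioesterase. Cytosolic ribosomal proteins stood slightly above 0, with 77 of 82 measured members above 0, a median log2 ratio of 0.19 and 6 called higher (7.32%), among them Rpl41 (1101 FPKM with the inhibitor, 759 FPKM in the control).

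Some genes of stress responses and lipid handling fell, though most tested members of each list counted here were not called. The counts are read against 4.79% called higher and 2.61% called lower of all genes tested. Ero1l, the oxidase that drives disulphide formation in the endoplasmic reticulum, fell to 623 FPKM with the inhibitor, against 1150 FPKM in the control, and was 1 of 3 of 27 measured folding genes that fell, with Edem1 and Ern1. Of 37 integrated stress response genes 0 rose and 3 fell: Trib3, a pseudokinase induced by stress, was at 82.4 FPKM with the inhibitor and 134.8 FPKM in the control, and Ddit3 and Gdf15 were the others. Hmox1, heme oxygenase, fell to 309.6 FPKM with the inhibitor, against 559 FPKM, and the metallothionein Mt2 to 2761 FPKM, against 4052 FPKM. Both are in the antioxidant list, where 3 of 57 measured genes rose and 3 fell (5.26% each). Npc1, the lysosomal cholesterol exporter, fell to 21.6 FPKM with the inhibitor, against 44.9 FPKM in the control, and Tmbim6, a membrane protein that guards against stress-induced death, to 1086 FPKM, against 1697 FPKM. Of 37 cholesterol genes 1 rose (2.70%) and 2 fell (5.41%), with a median log2 ratio of 0.07. Of 41 fatty acid, triglyceride and phospholipid synthesis genes 1 rose (2.44%) and 0 fell. In the lipolysis and adrenergic list 2 rose and 4 fell of 31 rows, led by Cidea downward and by Npr1, the natriuretic peptide receptor, upward (11.2 FPKM with the inhibitor, 5.40 FPKM in the control); the fallen rows include 2 separate entries of Pde4d. Of 37 glycolysis and hypoxia genes 3 fell, with Kdm3a at 26.7 FPKM with the inhibitor and 38.5 FPKM in the control, and Slc16a1, the lactate transporter, at 99.1 and 140.7 FPKM.

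The largest falls belonged to genes of mixed function. Sh2d6, an SH2-domain gene (chr6:72513641-72521707), was at 4.48 FPKM with the inhibitor and 17.4 FPKM in the control, 3.88-fold lower. Coro6, a coronin that binds actin, was at 13.99 and 42.2 FPKM, and Kalrn, a guanine nucleotide exchange factor, at 3.07 and 9.59 FPKM, in the same order. Mreg, melanoregulin, was at 8.79 FPKM with the inhibitor and 23.7 FPKM in the control, and Smox, spermine oxidase, at 3.65 and 10.2 FPKM. The pacemaker channel Hcn2 was at 5.06 FPKM with the inhibitor and 12.2 FPKM in the control. BB218582, Rhod, Arhgap21, Eps8l2, Ttc7 and Apbb2 were also among the 15 genes. Among the rises not yet named were Apod, a lipid-carrying lipocalin (24.2 FPKM with the inhibitor, 7.26 FPKM in the control), Plac8 (46.9 and 17.1 FPKM) and the zinc finger gene Zbtb38 (25.9 and 6.27 FPKM).

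**Figure D3:**
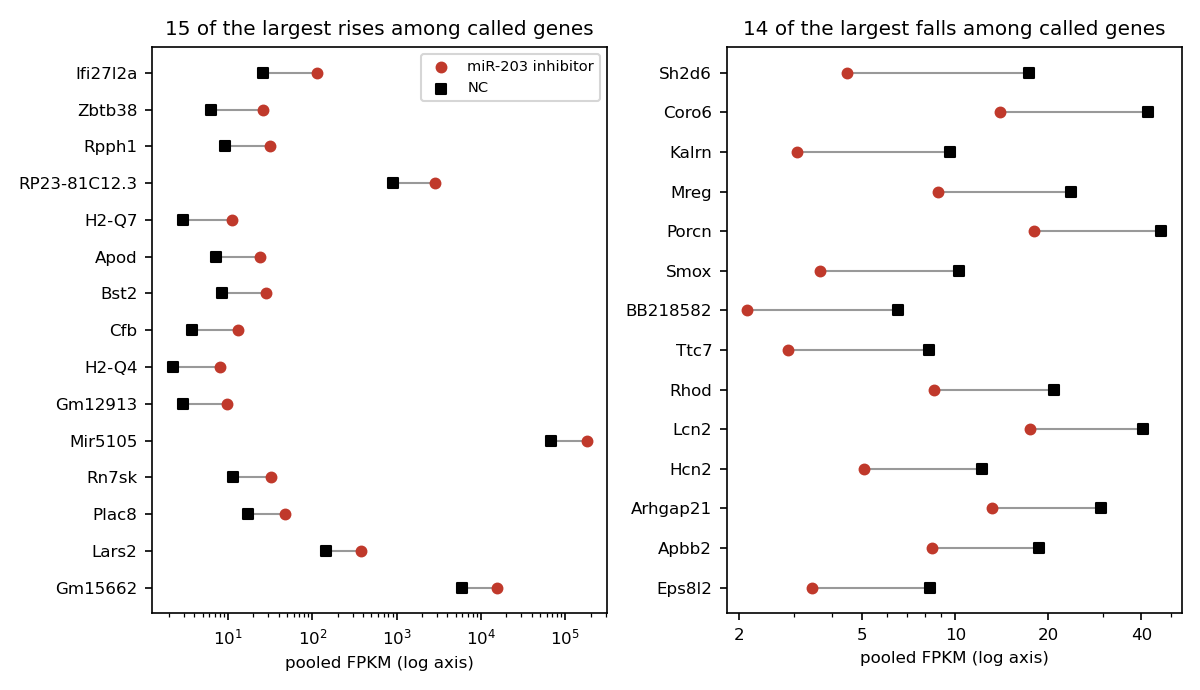
Pooled FPKM, on a log axis, of the 15 genes with the largest rises and 14 of the 15 with the largest falls among called genes of at least 5 FPKM in either group, with circles for the miR-203 inhibitor and squares for NC. The rises range in level from H2-Q4, at 8.13 FPKM with the inhibitor, to Mir5105, at 178253 FPKM, and the falls all stay below 50 FPKM.

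Of 80 tested small nucleolar and other structural RNAs 3 rose (3.75%) and 1 fell, against 4.79% and 2.61% of all genes tested, and of 36 transcripts of the mitochondrial genome 4 rose and 1 fell. Rpph1, the RNA of RNase P, was at 31.6 FPKM with the inhibitor and 9.11 FPKM in the control, and Rn7sk, the 7SK RNA, at 32.0 and 11.4 FPKM. RP23-81C12.3 (chr17:39846958-39848788), which overlaps the RefSeq 18S ribosomal RNA pseudogene Rn18s-rs5 (chr17:39846354-39848202), was at 2823 FPKM with the inhibitor and 909.9 FPKM in the control. Mir5105, the row of highest level among the called genes, was at 178253 and 66947 FPKM, Gm15662 at 15306 and 5995 FPKM, Gm12913 at 9.64 and 2.91 FPKM, and Lars2, the mitochondrial leucyl-tRNA synthetase, at 378 and 147 FPKM. The mitochondrial ribosomal RNAs mt-Rnr2 and mt-Rnr1 were at 317 and 371 FPKM with the inhibitor, against 171 and 232 FPKM in the control. Of the mitochondrial transfer RNAs, mt-Tn was called higher (28983 FPKM, against 18640 FPKM) and mt-Tk lower (12205 FPKM, against 18862 FPKM; q = 0.00463 in the authors' deposited table). The fallen structural RNA was Neat1, which builds nuclear paraspeckles, at 703 FPKM with the inhibitor and 1045 FPKM in the control (q = 0.0181 in the authors' deposited table). The part of ribosomal and other structural RNA in the FPKM scale of the remaining genes was not tested.

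The same genes were read in the comparisons of the other inhibitors, which share the control samples, and their values are set side by side without a test. The log2 ratio of Mir5105 was 1.41 for miR-203, -0.12 for miR-182 and -0.10 for miR-708, and that of Rpph1 was 1.69, -0.51 and -0.06, in the same order. RP23-81C12.3 was at 1.63, -0.26 and 0.12, Rn7sk at 1.41, -0.35 and -0.37, and Lars2 at 1.35, 0.04 and 0.10. Among protein-coding genes Zbtb38 was at 1.89, 0.61 and 1.06, Ttc7 at -1.25, -0.30 and -0.07, and Apbb2 at -1.07, 0.02 and -0.33. Ifi27l2a was at 2.11, 3.17 and 2.22, Coro6 at -1.53, -2.30 and -1.82, and Cidea at -0.92, -2.38 and -1.02. Over the same measured genes, the interferon list had a median of 0.56 for miR-203, 1.24 for miR-182 and 0.67 for miR-708, the matrix glycoproteins 0.51, 0.67 and 0.47, and the mitosis genes 0.39, 0.57 and 0.43.

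The inhibitor groups can also be set against each other without the control. The level with the miR-203 inhibitor over that with the miR-182 inhibitor had a median log2 ratio of -0.57 over the interferon list, -0.20 over the matrix glycoproteins, -0.19 over the mitosis genes and 0.14 over the brown adipocyte genes. The level with the miR-203 inhibitor over that with the miR-708 inhibitor had medians of -0.05, 0.04, -0.06 and 0.07 over the same lists. No test of these differences could be made, with 1 value per group.

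The seed of miR-203 was then looked for in the 3′ UTR of 1 transcript per gene, the longest protein-coding one of GENCODE vM21, for 11015 measured genes. The median log2 ratio was -0.01 in the 533 genes with an 8mer, -0.01 in the 1306 whose strongest site was a 7mer-m8, -0.02 in the 840 with a 7mer-A1 and -0.01 in the 8336 with no such site. Of the genes with an 8mer and a test, 4.88% were called higher and 2.63% lower, against 5.45% and 2.84% of the genes with no site. The 796 genes with 2 or more sites had a median of -0.01, with 3.64% called higher and 2.76% lower. In UTRs of over 1798 bases 2.78% of genes with an 8mer and 4.46% of those with no site were called higher. In UTRs of 659 to 1798 bases these shares were 10.9% (12 of 110 genes) and 5.96%, and in shorter ones 11.1% (3 of 27 genes) and 5.55%. The shares called lower, with an 8mer and with no site, were 2.02% and 2.31% in UTRs of over 1798 bases. In UTRs of 659 to 1798 bases they were 4.55% (5 of 110 genes) and 2.81%, and in shorter ones 3.7% (1 of 27 genes) and 3.16%. Genes with a site have longer UTRs, a median of 2448 bases against 858 bases without one. Among the longest UTRs, of over 1798 bases, the medians were -0.01 with an 8mer and -0.02 with no site. Among UTRs of 659 to 1798 bases they were -0.02 and -0.01, and among shorter ones, where 27 genes had an 8mer, 0.05 and -0.01. Genes sorted by the seeds of miR-182-5p and miR-708-5p, the microRNAs blocked in the other groups, had 8mer medians of -0.03 and 0.00 in this comparison. With 1 pooled value per group these are descriptions without a test, and a shift in protein without a shift in RNA would not appear here.

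**Figure D4:**
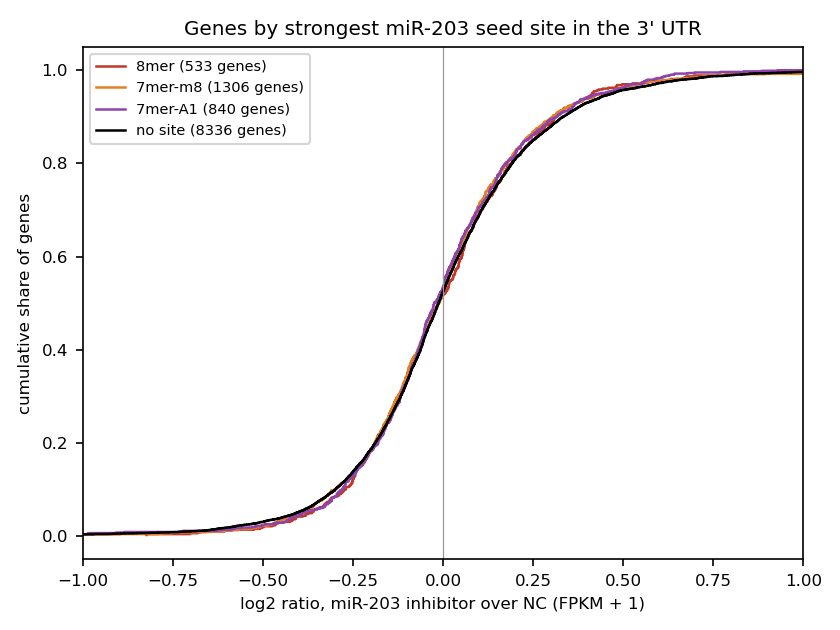
Cumulative share of genes by log2 ratio of the miR-203 inhibitor over NC, for genes grouped by their strongest miR-203 seed site in the 3′ UTR. The curves of the 533 genes with an 8mer, the 1306 with a 7mer-m8, the 840 with a 7mer-A1 and the 8336 with no site lie almost on each other, with medians from -0.02 to -0.01.

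Sites of called genes are shown so that the match can be read in its context, each as 23 bases of the GRCm38 messenger ending with the 8mer in capitals. The first set is of the 6 genes with an 8mer that rose most, where Sfrp1 holds 2 sites.
Rtp4: caatgaaatagatgtCATTTCAA
Sp100: attgccccctcccccCATTTCAA
Sfrp1: taattccatctgtcaCATTTCAA
Sfrp1: aaagtccacactcagCATTTCAA
Usp18: tacccttgtctgctgCATTTCAA
Hist1h3e: ttgttacattgttggCATTTCAA
Fbn1: tcagttcaaatacttCATTTCAA
They lie at chr16:23613504-23613526 (Rtp4), chr1:85709342-85709364 (Sp100), chr8:23447414-23447436 and chr8:23447493-23447515 (Sfrp1), chr6:121270568-121270590 (Usp18), chr13:23561586-23561608 (Hist1h3e, minus strand) and chr2:125301079-125301101 (Fbn1, minus strand), the unmarked ones on the plus strand. Sp100, a nuclear body protein, was at 2.22 FPKM with the inhibitor and 0.579 FPKM in the control, the histone gene Hist1h3e at 2.97 and 1.31 FPKM (q = 0.00819 from the authors' deposited table), and Fbn1, fibrillin, at 25.0 and 15.1 FPKM. Of the 6, Rtp4, Sp100 and Usp18 belong to the interferon list and Fbn1 to the matrix list. Rtp4, Sp100 and Usp18 reached 1 FPKM in the inhibitor group alone. Against the same control samples, the log2 ratio of Rtp4 was 1.22 for miR-203, 2.86 for miR-182 and 1.33 for miR-708. In the same order Sp100 was at 1.03, 1.81 and 1.07, Usp18 at 0.79, 1.99 and 1.00, and Sfrp1 at 0.89, 1.13 and 0.93. Fbn1 was at 0.70, 1.00 and 0.63, and Hist1h3e at 0.78, 0.54 and 0.56.

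The same 8mer stood in genes that fell, and the 4 with the largest falls are shown for comparison, chosen after their values were seen.
Gabarapl1: tgcattctcacatgaCATTTCAA
Csrnp2: tttattatctaacacCATTTCAA
Rcan3: ggggtgagcaccacaCATTTCAA
Plk2: tttttttatgttgacCATTTCAA
They lie at chr6:129542174-129542196 (Gabarapl1, plus strand), chr15:100481757-100481779 (Csrnp2, minus strand), chr4:135415383-135415405 (Rcan3, minus strand) and chr13:110400791-110400813 (Plk2, plus strand). Gabarapl1, an autophagosome protein, was at 130.0 FPKM with the inhibitor and 230.7 FPKM in the control, Csrnp2 at 3.21 and 5.85 FPKM, Rcan3, a calcineurin regulator, at 4.004 and 7.02 FPKM (q = 0.0232 from the authors' deposited table), and the kinase Plk2 at 2.96 and 5.30 FPKM.

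Genes that other studies have reported as miR-203 targets, a list drawn up from general knowledge and not from a database, held 25 measured members, of which 4 rose, against 4.79% of all genes tested, and 0 fell, with a median log2 ratio of 0.11, or -0.0016 over those of at least 5 FPKM. Against the same control samples 6 of these genes were called higher with the miR-182 inhibitor and 4 with the miR-708 inhibitor, with medians of 0.14 and 0.04. The 4 were Birc5, Pdgfra, Fzd2 and Snai1, and the first pair is also in the mitosis and progenitor lists. The Pdgfra UTR of 3101 bases holds no 8mer or 7mer-m8 and 1 site of the 7mer-A1 class. Insig1, which holds back cholesterol synthesis, has 1 7mer-m8 and 1 7mer-A1 in a UTR of 1842 bases and was at 270 FPKM with the inhibitor and 219 FPKM in the control (q = 0.141 in the authors' deposited table). Ucp1 has 1 7mer-m8 and Pparg none. The silencing machinery itself, with 27 measured rows, had 1 called higher (Mov10) and 1 lower (Pan2).

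The share of genes called varied with their level and their locus. Between 1 and 3 FPKM on average 7.64% of tested genes were called higher and 3.04% lower, between 30 and 100 FPKM 2.80% and 1.81%, and at 100 FPKM or more 3.74% and 1.87%. Genes with a mean below 1 FPKM were kept only because 1 group reached 1 FPKM and the other did not, so their shares, 11.6% and 3.75%, follow in part from the selection. Of tested genes that the table lists alone under their locus, 6.26% were called higher and 3.45% lower. With 2 genes under the same locus the shares were 3.15% and 1.52%, with 3 genes 1.71% and 1.05%, with 4 genes 0.948% and 0.711%, and of 464 tested genes in loci of 5 or more 0 were called in either direction. The median log2 ratios of these locus classes ran from -0.04 to -0.01. Called genes named above that lie in shared loci include Tnfsf12 (4 genes), Cfb, Eng, Adamts2 and Npc1 (3 genes each), and Cidea and H2-Q4 (2 genes each).

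**Figure D5:**
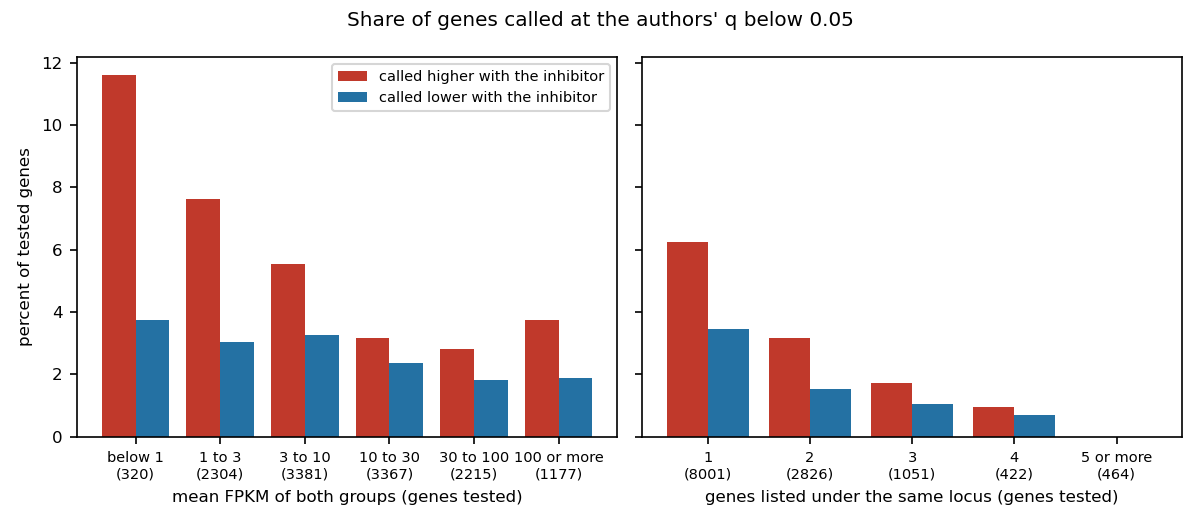
Percent of tested genes called higher or lower with the miR-203 inhibitor, by mean FPKM of both groups and by the number of genes that the table lists under the same locus, with the genes tested in parentheses. The share called higher is 7.64% at 1 to 3 FPKM, 2.80% at 30 to 100 FPKM and 3.74% at 100 FPKM or more, the class below 1 FPKM holds only genes kept through 1 group, and the shares of both directions decline to 0 in loci of 5 or more genes.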

How the data were processed

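Libraries for mRNA sequencing of 8 samples were made with a directional kit from 5 µg of total RNA each, per the labels' protocols and the series' design text. Reads were processed with TopHat2 2.0.9 and Cuffdiff 2.1.1 on mm10, per the submitters' processing notes. Annotation and use of strand: not given in the sources used here. For each inhibitor the authors deposited 1 table, with 1 pooled FPKM per group, a log2 fold change, a p-value and a q-value per gene. FPKM is relative to length and library total, so a few very abundant RNAs can move all other values. The p-values and q-values in the deposited table are the authors' own; genes with p and q of exactly 1 were taken as not tested. The deposited log2 fold change equalled the log2 of the FPKM ratio within 0.01 for 18929 of 18933 genes and supplied the sign of each call.

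Computed here, with Python, pandas and numpy, were log2 ratios with a pseudocount of 1 for genes of at least 1 FPKM in either group, counts of calls (q below 0.05) and medians over 56 gene lists. The pseudocount makes the ratio understate changes of low genes. Symbols that a spreadsheet had turned into dates, 23 in all, were restored from Ensembl IDs. Coordinates and UTRs are those of GENCODE vM21 on GRCm38, the mm10 build, and promoters and the microRNA those of RefSeq. The computations were tested on simulated data. All columns with values per group were assigned, and 0 were left aside.

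The comparison, its members and the gene lists were chosen with earlier results of these data known. The genes named are the 15 called genes of at least 5 FPKM with the largest change in each direction, the 3 of highest FPKM in each direction, the 2 most changed called members of each list with 2 or more (4 with 8 or more), 10 fixed adipocyte genes and the 6 most raised with an 8mer. Other genes are named where they make up a count of 5 or fewer or serve as markers, after their values were seen. Some genes that these rules name are not reported here.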

Additional observations from a re-analysis of the deposited data

How the results depend on the processing

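The counts of calls depended on the threshold more than on the adjustment. With a q below 0.01 in the authors' deposited table, 388 genes were called higher and 185 lower. With at least 1.5-fold in addition to q below 0.05 the counts were 401 and 173. With a minimum of 5 FPKM 352 were called higher and 230 lower. Adjusting the authors' p-values over the genes tested in this table alone gave 635 and 362, without a minimum on FPKM 678 and 361, and without shared loci 501 and 276. The median log2 ratio stayed between -0.02 and 0.02, and the difference in median between genes with an 8mer and genes with no site between -0.0018 and 0.0381, under all settings planned for them; between genes with 2 or more sites and genes with no site it was -0.0026.

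Of 50 list medians, 9 moved by more than 0.1 without a minimum on FPKM, 8 with a minimum of 5 FPKM, 5 with a pseudocount of 0.1, 1 with a minimum on the mean, and 0 with a pseudocount of 0.5 or with centring, which shifted all values by 0.03. The interferon median was 0.32 with all genes and 0.47 with a minimum of 5 FPKM, that of the chemokines 0.11 and that of the collagens 0.12 with all genes, and that of complement 0.16 with all genes and 0.79 with a minimum of 5 FPKM. Of the 50 medians 11 changed sign under 1 or more settings. Of 130 named gene entries 21 lost their call at q below 0.01, among them Ucp1, and 21 lost it under the added 1.5-fold. A pseudocount cannot change the direction of a gene, so it gives no check of direction. No paired analysis was possible because the table holds 1 pooled value per group, and for the same reason no replicate could be left out. Depth is unknown, so no counting error could be given for any FPKM.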

Other observations

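Calls were spread over the chromosomes: the share of tested genes called higher ran from 2.69% on chromosome 19 (12 of 446) to 7.31% on chromosome 9 (52 of 711) among the nuclear ones and was 11.1% on the mitochondrial one (4 of 36).

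By annotated class, 5.26% of 11095 tested protein-coding genes were called higher and 2.77% lower, against 1.27% and 0.506% of 395 antisense genes and 0.28% and 1.12% of 357 processed pseudogenes. Of 81 tested small nucleolar RNAs 0 were called higher and 1 lower, with quartiles of the log2 ratio at -0.60 and 0.65.

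In the tertile of messengers with the highest GC content the median log2 ratio was 0.01, with 6.32% of tested genes called higher, and in the tertile with the lowest GC content it was -0.04, with 3.98%. By tertile of messenger length the medians lay between -0.021 and -0.0023.

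The next lists are read against 4.79% of all tested genes called higher and 2.61% called lower. Of 57 antioxidant genes 3 rose and 3 fell (5.26% each): the peroxidase Gpx7 was at 11.6 FPKM with the inhibitor and 7.36 FPKM in the control, while Hmox1 and Mt2 were among those that fell. Of 19 clock genes 0 rose and 2 fell (10.5%), among them Nr1d2, a nuclear receptor of the clock, at 4.36 FPKM with the inhibitor and 6.58 FPKM in the control (q = 0.00463 in the authors' deposited table). Of 43 lysosomal genes 2 rose (4.65%): the protease Ctsk was at 33.5 FPKM with the inhibitor and 19.4 FPKM in the control, and Gusb at 13.9 and 10.1 FPKM (q = 0.0295 in the authors' deposited table). Of 28 amino acid transporters 0 were called in either direction, and of 41 proteasome subunits 2 rose (4.88%) and 1, Psmc6, fell (2.44%).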
